A study of Homo sapiens with 16 samples.

Results

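Receptor-type protein tyrosine phosphatases were followed through RNA-seq counts of human clear cell renal cell carcinoma (ccRCC) lines that carried guide RNAs against the histone demethylase genes KDM5C or KDM5D. The 10 genes described here, out of 57773 in the count table, were PTPRS, PTPRF, PTPRD, PTPRA, PTPRE, PTPRG, PTPRJ, PTPRK, PTPRM and PTPRU. The set was built around PTPRS, which was chosen by its measured counts: they were higher with sgKDM5D than with sgKDM5C in 786-O cells, and they differed widely between lines. The other 9 genes joined as members of the same family. The PTPRS values in 786-O and the PTPRS differences between lines are therefore given as a description, without a test.

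The 4 lines, 769-P, CAKI-2, 786-O and A498, were established from ccRCC. Every population had been infected with a lentivirus that expressed spCas9, 1 guide RNA and a drug resistance gene, and was analysed as a mixed population, not as a clone. Each line had 1 library with the control guide (sgCtrl) and 2 libraries with guides against KDM5C (sgKDM5C, guides 4 and 5, which cut in the same exon). 786-O and CAKI-2 also had 2 libraries with guides against KDM5D (sgKDM5D, guides 2 and 4). The replicates of a group were thus 2 guides in 1 line, every comparison with a control rested on 1 control library, and all p-values measure only the spread between these guide libraries.

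Receptor-type protein tyrosine phosphatases are single-pass membrane proteins with an adhesion-like extracellular part and catalytic domains inside the cell, which remove phosphate from tyrosines placed there by kinases such as the Src family and growth factor receptors. The LAR group (PTPRS, PTPRF and PTPRD) binds heparan and chondroitin sulphate proteoglycans and synaptic adhesion proteins, and is best known from axon growth and synapse formation. PTPRK, PTPRM and PTPRU carry a MAM domain and act at cell contacts with cadherins and catenins, which makes them of interest in epithelia such as the renal tubule from which ccRCC arises.

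The 16 libraries held 23398449 to 41617439 counts. Levels are given as CPM, counts scaled to a common library size with TMM factors. KDM5C RNA was left at 26.2% to 57.3% of the line's control in the 8 sgKDM5C libraries, whereas KDM5D RNA stood at 76.2% to 103% of the control in the 4 libraries labelled sgKDM5D, so the transcript does not check that label. In sgKDM5C 4 and 5, KDM5D RNA stood at 66.0% and 85.8% of the control in 786-O and at 107% and 82.9% in CAKI-2. One 786-O library, sgKDM5C 4, stood somewhat apart, with a correlation of log2 CPM of at most 0.985 with the other 786-O libraries, whose correlations with each other reached 0.995. The renal transcription factor PAX8 was found at 145 to 968 CPM in all lines. The 4 leukocyte markers together did not exceed 0.383 CPM. Endothelial markers summed to 12.9 to 37.5 CPM in 786-O, mostly PTPRB, and to at most 12.8 CPM elsewhere. Fibroblast markers summed to 24.0 to 42.2 CPM in A498, mostly COL1A1, and to at most 11.7 CPM elsewhere. The ccRCC marker CA9 was at or near 0 in 786-O, CAKI-2 and 769-P. NDUFA4L2 was at 0 in 769-P and at 0.323 to 0.993 CPM in 786-O. The epithelial marker EPCAM was at 0.296 to 2.22 CPM in 786-O and 0.383 to 0.826 CPM in A498. It was at 9.10 CPM or more in CAKI-2 and 16.9 CPM or more in 769-P.

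PTPRS (ENSG00000105426), which encodes the proteoglycan receptor PTPσ, lies at chr19:5158506-5340823 on the minus strand (GRCh37). In 786-O it was counted 54 times in sgCtrl, 9 times in sgKDM5C 4, 6 times in sgKDM5C 5, 744 times in sgKDM5D 2 and 126 times in sgKDM5D 4. On the CPM scale these counts were 2.03, 0.308, 0.216, 24.5 and 4.63. The control lay between the sgKDM5C pair below and the sgKDM5D pair above, with no overlap between genotypes. The sgKDM5C libraries held 15.1% and 10.6% of the control level, and the sgKDM5D libraries 12.04 and 2.28 times that level.

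The sgKDM5D libraries of 786-O differed from each other by a factor of 5.28, so that their mean of 14.5 CPM had an SD of 14.02 (n = 2), against 0.262 ± 0.0651 CPM (SD, n = 2) for sgKDM5C. The fitted log2 fold change of sgKDM5C minus sgKDM5D was -5.78 and became -4.14 without the sgKDM5D 2 library. This contrast chose PTPRS, and 0.0644% of the 20175 genes tested were called in it. In bulk RNA, a few cells rich in PTPRS and many cells with little of it cannot be told apart.

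PTPRS was abundant in the other 3 lines, whatever the guide. In CAKI-2 it reached 392 CPM in sgCtrl, 403 and 426 in sgKDM5C 4 and 5, and 434 and 361 in sgKDM5D 2 and 4. In A498 it stood at 116 CPM in sgCtrl, 142 in sgKDM5C 4 and 126 in sgKDM5C 5. In 769-P the corresponding levels were 90.4, 82.6 and 109 CPM. CAKI-2 was highest, A498 and 769-P followed with neighbouring ranges that did not overlap, and every 786-O library was below every library of the other lines. Even the highest 786-O library, sgKDM5D 2, held 29.6% of the lowest library elsewhere, and the mean over CAKI-2 libraries was 63.7 times that over 786-O libraries. The 786-O mean of 6.33 CPM was raised by sgKDM5D 2, against a median of 2.03 CPM. From the sgCtrl and sgKDM5C groups alone, the fitted difference of 786-O minus CAKI-2 was -9.10 on the log2 scale.

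**Figure D1:**
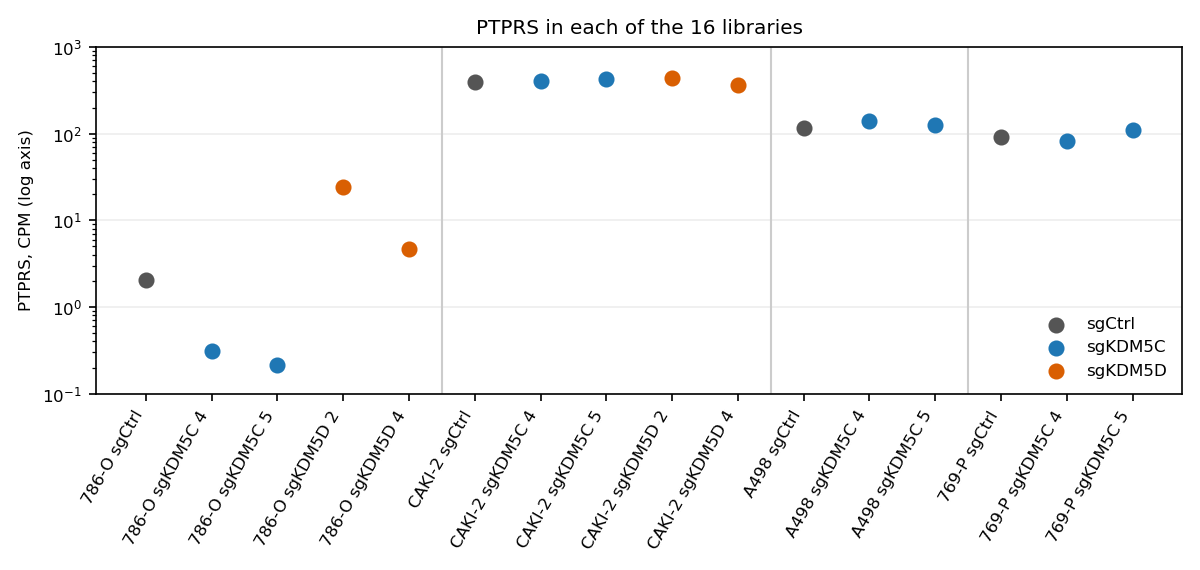
PTPRS in CPM on a log axis for each of the 16 libraries, coloured by guide target, with vertical lines between cell lines. The 786-O libraries spread from 0.216 to 24.5 CPM, while those of CAKI-2 lie between 361 and 434 CPM, those of A498 between 116 and 142 CPM, and those of 769-P between 82.6 and 109 CPM.

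Outside 786-O, no change of PTPRS with the guides was detected. The choice of the gene had used the levels of these lines, though no difference between guides within them. The edgeR quasi-likelihood F-test over all libraries gave log2 fold changes of sgKDM5C against sgCtrl of 0.08 in CAKI-2 (95% interval -1.03 to 1.20), 0.21 in A498 (-0.92 to 1.33) and 0.08 in 769-P (-1.04 to 1.21). For sgKDM5D against sgCtrl in CAKI-2 it was 0.02 (-1.09 to 1.13), and for sgKDM5C against sgKDM5D in CAKI-2 it was 0.06 (-0.85 to 0.97). The Benjamini-Hochberg adjusted p over all genes tested in these edgeR comparisons was 0.984 in A498 and 1.0 in the others, and 0.0% of genes were called in the CAKI-2 comparisons and 0.00496% in those of A498 and 769-P. The intervals use a spread pooled over all lines, the 786-O guides included, and reach beyond 1 on the log2 scale in 4 of these 5 comparisons. The difference between the sgKDM5D effects in 786-O and CAKI-2 was 2.82 on the log2 scale and is given without a test, since the 786-O libraries chose the gene.

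The PTPRS reads in 786-O were compared with genes high in another line and low in 786-O, a check chosen after the PTPRS values were seen. There were 38 genes at over 50 CPM in every CAKI-2 library and under 0.5 CPM in the 786-O sgCtrl and sgKDM5C libraries. In the 786-O sgKDM5D 2 library these 38 genes summed to 0.0381% of their CAKI-2 level, whereas PTPRS stood at 6.06% of its CAKI-2 mean. The corresponding shares were 0.114% for 25 genes of A498, against 19.1% for PTPRS, and 0.115% for 14 genes of 769-P, against 26.0% for PTPRS. These sets overlapped, with FBLN1 in each of them, so they are not separate checks. The limit of 0.5 CPM set the level of these genes in sgCtrl and sgKDM5C, which are therefore not compared. PTPRS itself did not meet this limit, since it was at 2.03 CPM in sgCtrl, 0.503% of its CAKI-2 mean. Part of its distance from these genes was thus set by how they were selected.

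**Figure D2:**
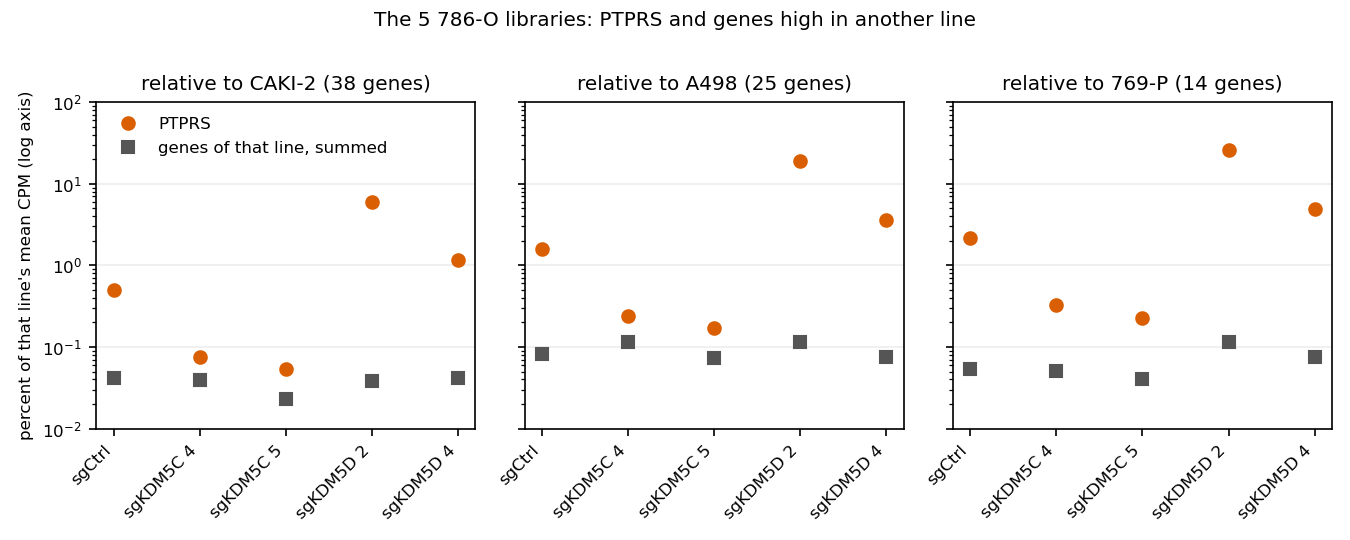
For the 5 786-O libraries, PTPRS (circles) and the sum of genes that are high in another line (squares), each as a percentage of that line's mean CPM on a log axis, with 1 panel for CAKI-2, A498 and 769-P. In sgKDM5D 2 and 4, the libraries that did not choose the plotted genes, PTPRS lies at 6.06% and 1.15% of its CAKI-2 mean and the 38 CAKI-2 genes at 0.0381% and 0.0414%.

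PTPRS was 1 of 2 genes that were strong in all other lines and weak in the 786-O sgCtrl and sgKDM5C libraries. The limits were set after its values were seen, so its own place there follows from them. PTPRS and FBLN1, which encodes the matrix protein fibulin-1, exceeded 50 CPM in every library of CAKI-2, A498 and 769-P while staying under 3 CPM in the 786-O sgCtrl and sgKDM5C libraries. The tested genes next to PTPRS on chromosome 19 were read in the same libraries. KDM4B, a histone demethylase gene on its lower side, was found at 55.2, 54.1, 54.0, 55.6 and 54.1 CPM in the 5 libraries of 786-O in the order given above. Of the 10 nearest tested genes, 9 were counted in sgCtrl of 786-O, and their ratio of sgKDM5D 2 to sgCtrl ranged from 0.721 to 1.22. Among them, ENSG00000268536, FEM1A and SNRPEP4 were near the floor, at 0.188, 0.188 and 0.715 CPM in sgCtrl. The ratio of 1.22 was that of ENSG00000268536, and without these genes the highest was 1.04, for SAFB. The tenth, TINCR, was near the floor in 786-O. It was at 0, 0, 0.251, 0.197 and 0.0735 CPM in sgCtrl, sgKDM5C 4 and 5, and sgKDM5D 2 and 4. Its highest value there thus came from sgKDM5C 5, where PTPRS was lowest. Its low mean levels were 1.02 CPM in CAKI-2, 0.583 in A498, 0.185 in 769-P and 0.104 in 786-O. They had the same order of lines as those of PTPRS.

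The genes whose log2 CPM most resembled that of PTPRS over all 16 libraries were SHANK3 (Pearson r = 0.982), ANKRD6 (0.973), GLMP (0.972), KBTBD7 (0.967) and UNC5A (0.965), if genes with a mean under 20 counts are left out. The points of such a correlation are not independent, since the libraries of a line share their source. Within 786-O, SHANK3, a synaptic scaffold gene, was counted 16, 10, 12, 135 and 21 times in sgCtrl, sgKDM5C 4 and 5, and sgKDM5D 2 and 4. UNC5A, which encodes a netrin receptor, was counted 6, 11, 9, 103 and 15 times in the same order, and GLMP 6, 4, 3, 77 and 21 times. ANKRD6 was counted 3, 1, 2, 21 and 9 times, and KBTBD7 30, 9, 8, 43 and 22 times. The genes were picked for their likeness over libraries that include those of 786-O, so a high value in sgKDM5D 2 is favoured by the choice and is no separate result. KBTBD7 was lower in sgKDM5D 4 than in sgCtrl, and the counts of UNC5A were not lower with sgKDM5C than with sgCtrl. Over the 11 libraries outside 786-O the most similar genes were ZNF185, ADRA1B, PRR15, SMO and PDXK (r = 0.995, 0.994, 0.993, 0.993 and 0.993).

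The sequences before the start sites of PTPRS, PTPRF and PTPRU are shown because the first and the last had the widest ranges between lines and PTPRF is the strongly expressed relative of PTPRS in 786-O. They are the 250 bases before the RefSeq start, 5′ to 3′ on the strand of the gene, in GRCh38.p14, which differs from the build of the gene intervals. Capitals mark CACGTG, a palindrome known as an E-box. The PTPRS window is chr19:5340813-5341062 (minus strand), the PTPRF window chr1:43530633-43530882 (plus strand) and the PTPRU window chr1:29236272-29236521 (plus strand).
PTPRS: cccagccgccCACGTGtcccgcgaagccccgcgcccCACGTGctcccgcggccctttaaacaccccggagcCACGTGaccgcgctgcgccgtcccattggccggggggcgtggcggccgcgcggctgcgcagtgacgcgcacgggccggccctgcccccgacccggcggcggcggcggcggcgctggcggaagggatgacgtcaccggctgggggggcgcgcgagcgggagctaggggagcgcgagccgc
PTPRF: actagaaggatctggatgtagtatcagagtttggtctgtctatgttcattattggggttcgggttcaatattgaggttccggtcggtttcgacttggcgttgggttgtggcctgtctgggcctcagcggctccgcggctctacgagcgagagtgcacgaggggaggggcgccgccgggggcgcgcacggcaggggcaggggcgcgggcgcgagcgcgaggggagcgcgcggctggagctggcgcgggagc
PTPRU: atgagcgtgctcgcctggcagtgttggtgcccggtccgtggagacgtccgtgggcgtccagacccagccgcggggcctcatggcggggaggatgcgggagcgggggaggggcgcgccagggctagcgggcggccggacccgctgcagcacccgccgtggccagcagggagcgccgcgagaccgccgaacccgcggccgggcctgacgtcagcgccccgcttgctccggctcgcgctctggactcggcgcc

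Such windows were found for 9 of the 10 genes (16 windows, with several starts for some genes), and PTPRJ had none. Motifs were picked after the PTPRS sequence had been read, were searched on both strands, and each match was counted even where it touched another. The PTPRS window held 3 copies of CACGTG, which began 240, 214 and 179 bases before the start, and none of the other member windows held any. Of all 35116 windows of this length, 6.34% held at least 1 copy and 0.0797% held 3 or more. GGGCGG, the GC box, was found in 8 of the 16 member windows, from 7 members, and in 42.6% of all windows. TATAAA was found in 3 of the 16 member windows, from PTPRE and PTPRM, and in 10.7% of all windows. The PTPRS window had 44 CG dinucleotides, a number that 0.769% of all windows reached, against a median of 11 over all windows. Other members also had windows rich in CG, with 42 in a window of PTPRM, 38 for PTPRK, 36 for PTPRU and 28 for PTPRF. The lowest member window, also of PTPRM, held 2. These are matches of letters, and neither methylation nor the binding of a factor was read out in these libraries.

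The other 9 members also differed between lines. PTPRS had the widest range through its low level in 786-O, whereas CAKI-2 minus A498, for example, was 1.69 on the log2 scale for PTPRS and 2.46 for PTPRK. The level of a line was taken as the mean of its sgCtrl and sgKDM5C group means, and the 6 pairs of lines were tested for each of the 9 genes. With edgeR, 46 of these 54 tests were called at an adjusted p under 0.05 (85.2%). Differences between lines were common throughout, with 63.3% of all tested genes called between 786-O and CAKI-2, 68.7% between 786-O and A498, 50% between 786-O and 769-P, 65.8% between CAKI-2 and A498, 63.8% between CAKI-2 and 769-P and 69.9% between A498 and 769-P. Against these shares, 8, 8, 7, 8, 9 and 6 of the 9 members were called in the same pairs. A line was a single source here, so these calls compare the cultures sequenced. Line means of CPM were also taken over all libraries of a line, those of sgKDM5D included. The ratio between the highest and the lowest of these means was 14.8 for PTPRU, 6.14 for PTPRD, 4.95 for PTPRK, 3.64 for PTPRE, 3.31 for PTPRJ, 3.13 for PTPRA, 2.46 for PTPRF, 2.27 for PTPRM and 1.95 for PTPRG.

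**Figure D3:**
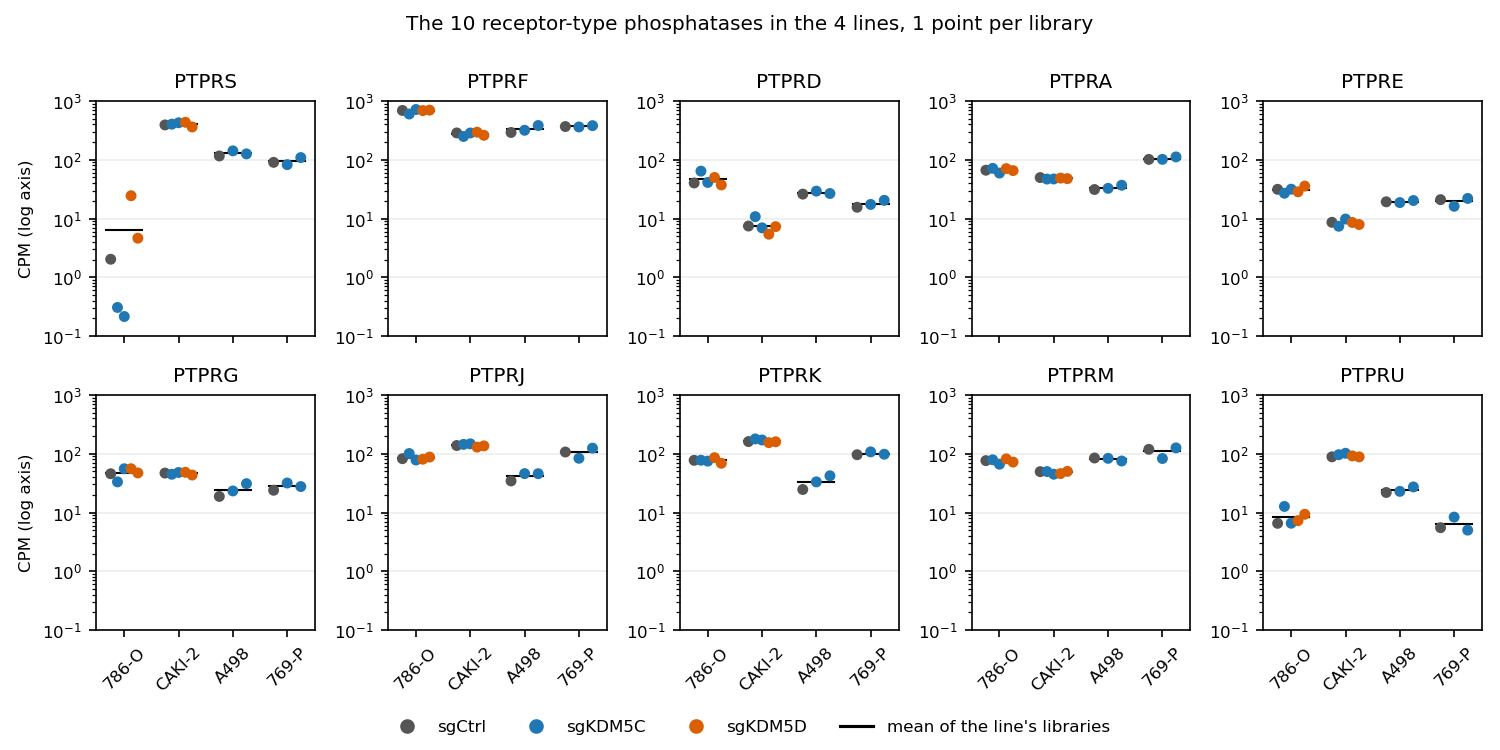
CPM on a log axis of the 10 genes in the libraries of each line, 1 point per library coloured by guide target, with a bar at the mean of the line's libraries. Apart from PTPRS in 786-O, libraries of a line lie close together, and PTPRU spans 5.02 to 102 CPM between 769-P and CAKI-2.

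PTPRF (ENSG00000142949, chr1:43990858-44089337, plus strand, GRCh37) encodes LAR, which gave its group the name and is widely expressed in epithelia. It was highest in 786-O, the line in which PTPRS was lowest. Its levels in 786-O were 690 CPM in sgCtrl, 600 and 717 in sgKDM5C 4 and 5, and 687 and 699 in sgKDM5D 2 and 4. The other lines reached 249 to 295 CPM (CAKI-2), 291 to 383 CPM (A498) and 362 to 381 CPM (769-P), and none of these ranges touched that of 786-O. The level in 786-O exceeded those of CAKI-2, A498 and 769-P by 1.29 ± 0.13, 1.08 ± 0.13 and 0.87 ± 0.13 on the log2 scale (± SE, with edgeR adjusted p values of 7.94e-07, 3.33e-06 and 4.96e-05). CAKI-2 was lower than 769-P (-0.42 ± 0.13, edgeR adjusted p = 0.00947), while A498 was not called against either of these neighbours (95% intervals -0.48 to 0.06 for CAKI-2 minus A498 and -0.48 to 0.06 for A498 minus 769-P).

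PTPRD (ENSG00000153707, chr9:8314246-10613002, minus strand, GRCh37), the third member of the LAR group and a gene known from deletions in several tumour types, followed the order of PTPRF at its ends. It was found at 37.3 to 64.1 CPM in 786-O, 26.0 to 29.3 in A498, 15.6 to 20.4 in 769-P and 5.42 to 10.8 in CAKI-2. None of these 4 ranges overlapped and all 6 pairs of lines were called, with a log2 difference of 2.51 ± 0.23 (SE) for 786-O over CAKI-2 (edgeR adjusted p = 3.78e-07). Its highest value, 64.1 CPM, came from the 786-O library sgKDM5C 4 that stood apart, and the other 4 libraries of that line held 37.3 to 49.97 CPM.

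Per kilobase of exon, the 3 LAR group genes together summed to 68.0 ± 3.68 CPM per kb in 786-O (SD, n = 5), 60.6 ± 3.72 in CAKI-2 (SD, n = 5), 44.1 ± 4.72 in A498 (SD, n = 3) and 44.1 ± 2.25 in 769-P (SD, n = 3). PTPRS made up 0.0259% to 2.94% of this sum in 786-O, 54.8% to 58.6% in CAKI-2, 21.9% to 27.2% in A498 and 16.6% to 19.8% in 769-P. These shares restate the PTPRS levels by which the gene was chosen.

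Among the MAM-domain genes, PTPRU (ENSG00000060656, chr1:29563028-29653325, plus strand, GRCh37), whose product is linked to beta-catenin at cell contacts, varied most. CAKI-2 held 88.6 CPM in sgCtrl, 96.35 and 102 in sgKDM5C 4 and 5, and 91.8 and 88.4 in sgKDM5D 2 and 4. A498 held 21.9, 22.9 and 27.2 CPM in sgCtrl and sgKDM5C 4 and 5, and 769-P held 5.52, 8.36 and 5.02 CPM. In 786-O, PTPRU was at 6.54 CPM in sgCtrl, 12.7 and 6.57 in sgKDM5C 4 and 5, and 7.26 and 9.34 in sgKDM5D 2 and 4. CAKI-2 was thus clear of A498, and A498 of the other lines, while the ranges of 786-O and 769-P overlapped and their difference was not called (0.38, 95% interval -0.15 to 0.92). CAKI-2 exceeded 769-P by a log2 difference of 3.94 ± 0.26 (SE, with an adjusted p of 1.37e-08 from edgeR) and A498 by 1.999 ± 0.23 (edgeR adjusted p = 3.48e-06).

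PTPRK (ENSG00000152894, chr6:128289930-128841761, minus strand, GRCh37), a phosphatase of catenins and of EGFR, was highest in CAKI-2 with 154 to 178 CPM, followed by 769-P with 96.2 to 107 CPM, 786-O with 68.9 to 85.7 CPM and A498 with 24.6 to 42.1 CPM. These ranges did not overlap and all 6 pairs were called, the largest difference being that of CAKI-2 over A498 (2.46 ± 0.14, SE, edgeR adjusted p = 3.37e-09). PTPRM (ENSG00000173482, chr18:7566780-8406859, plus strand, GRCh37), which binds to itself on adjoining cells, ran in another order. It reached 83.0 to 126 CPM in 769-P, 75.2 to 84.6 in A498, 66.4 to 81.8 in 786-O and 44.8 to 50.1 in CAKI-2. Only CAKI-2 was clear of the others, and A498 and 786-O did not differ beyond their spread (-0.14 for 786-O minus A498, 95% interval -0.47 to 0.20). CAKI-2 therefore had the highest PTPRU and PTPRK and the lowest PTPRM of the 4 lines.

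PTPRA and PTPRE, close relatives with short, glycosylated extracellular parts that can activate Src kinases, had different extremes. PTPRA (ENSG00000132670, chr20:2854066-3019722, plus strand, GRCh37) was at 101 to 112 CPM in 769-P, 59.4 to 71.5 in 786-O, 47.0 to 49.8 in CAKI-2 and 31.2 to 36.9 in A498. The 4 ranges were separate and all 6 pairs were called, with A498 below 769-P (log2 difference -1.66 ± 0.12, SE, with an adjusted p of 2.79e-08 from edgeR). PTPRE (ENSG00000132334, chr10:129705367-129884119, plus strand, GRCh37) was at 27.0 to 35.7 CPM in 786-O, 16.2 to 22 in 769-P, 18.7 to 20.3 in A498 and 7.40 to 9.81 in CAKI-2. A498 and 769-P overlapped and were not called (-0.05, 95% interval -0.42 to 0.33), and 786-O exceeded CAKI-2 by 1.81 ± 0.18 (SE, edgeR adjusted p = 8.62e-07).

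PTPRJ (ENSG00000149177, chr11:48001977-48192391, plus strand, GRCh37), which dephosphorylates growth factor receptors including MET, was at 130 to 147 CPM in CAKI-2, 83.7 to 124 in 769-P, 78.2 to 101 in 786-O and 34.5 to 45.9 in A498. Its highest and lowest lines stood clear of the others, while 786-O and 769-P overlapped and were not called (-0.30, 95% interval -0.62 to 0.03). PTPRG (ENSG00000144724, chr3:61547243-62283284, plus strand, GRCh37), a receptor for contactins, had the narrowest range between lines. It was at 33.2 to 55.6 CPM in 786-O, 43.4 to 48.3 in CAKI-2, 23.9 to 31.8 in 769-P and 18.8 to 31.0 in A498, so that the lines fell into a higher and a lower pair. Neither 786-O and CAKI-2 nor A498 and 769-P were called against each other, and the 4 tests across these pairs were called. The antisense gene PTPRG-AS1 shares 9.18% of the exon bases of PTPRG, and its 553 counts over all libraries, against 18274 for PTPRG, cannot be assigned without knowing how strand was used in counting.

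Per kilobase of exon, PTPRF was the most abundant of the 10 genes in 786-O (63.4 CPM per kb), 769-P (34.6) and A498 (30.9), and PTPRS in CAKI-2 (34.2, followed by PTPRF at 25.7). PTPRS ranked second in A498 (10.9 CPM per kb), sixth in 769-P (7.97) and last in 786-O (0.537). With the longest transcript in place of all exons, the first gene stayed first in each line, whereas 5 genes changed rank in 786-O, 6 in A498, 4 in 769-P and 0 in CAKI-2.

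Among the tests made, which leave out PTPRS wherever 786-O libraries enter, no member was called for a change with the guides against KDM5C or KDM5D. With edgeR, 0 of the 9 members tested were called for sgKDM5C against sgCtrl in 786-O (0.00991% of all genes called), and 0 of 10 in CAKI-2 (0.0%), A498 (0.00496%) and 769-P (0.00496%). For the mean sgKDM5C effect over the 4 lines (0.00991%) and for its difference between lines (0.0%), 0 of the 9 members were called. The same held for 0 of 9 with sgKDM5D against sgCtrl in 786-O (0.0149%), and for 0 of 10 with sgKDM5D against sgCtrl and sgKDM5C against sgKDM5D in CAKI-2 (0.0% each). DESeq2 also called 0 members in each of these comparisons. Of the genes to which it gave an adjusted p, the sgKDM5C effect had 0.419% called for A498, 0.152% for 786-O, 0.0397% for 769-P and 0.0198% for CAKI-2, against 0.225% for the mean effect and 0.0743% for the difference between lines. The sgKDM5D effect had 0.0% called for CAKI-2 and 0.0297% for 786-O, and the contrast of sgKDM5C with sgKDM5D had 0.204% called for CAKI-2. Calls were rare over all genes as well, so the counts of 0 are at the background and are not particular to the family.

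PTPRK alone had an unadjusted p under 0.05. In A498 it was at 24.6 CPM in sgCtrl, 33.2 in sgKDM5C 4 and 42.1 in sgKDM5C 5, a log2 fold change of 0.61 (95% interval 0.20 to 1.02) with an edgeR adjusted p of 0.828. Its mean effect over the 4 lines was 0.20 (0.00 to 0.40), with an edgeR adjusted p of 0.901. The within-line values were -0.02 in 786-O, 0.12 in CAKI-2 and 0.10 in 769-P, and the difference between lines was not called either.

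In A498, 8 of the 10 members were higher in both sgKDM5C libraries than in sgCtrl, namely all but PTPRE and PTPRM, and PTPRM was lower in both. Over all genes, 37.9% were higher in both and 34.8% lower in both. These 8 genes share the single A498 control, which also had the lowest depth of the series. The members higher in both libraries were 4 in CAKI-2 (30.6% of all genes), 4 in 769-P (27.2%) and 2 in 786-O (23.4%), and those lower in both were 2 (33.3%), 0 (29.1%) and 1 (25.9%), the last being PTPRS, whose 786-O values chose it. PTPRK was higher in both sgKDM5C libraries in CAKI-2, A498 and 769-P but not in 786-O. The 2 genes higher in 786-O were PTPRD and PTPRU, and the library sgKDM5C 4 gave most of both differences.

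**Figure D4:**
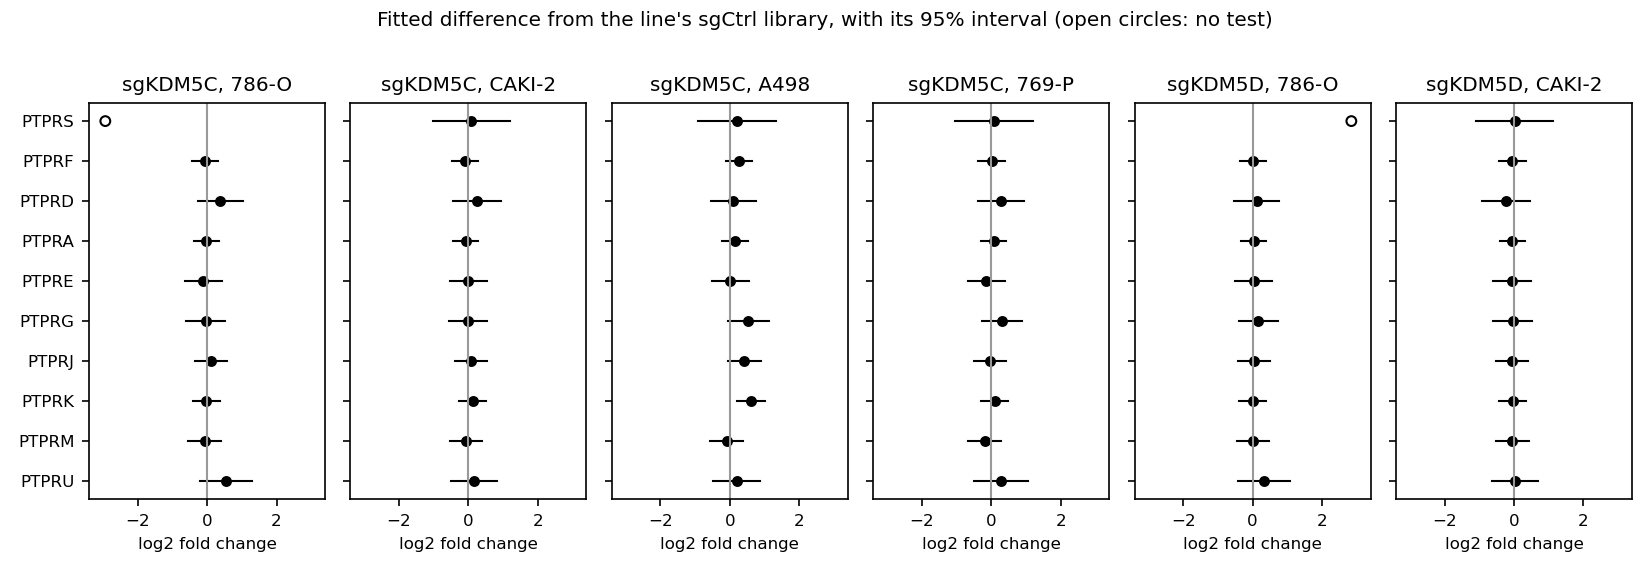
Fitted log2 fold change of sgKDM5C (4 lines) and sgKDM5D (2 lines) against the control library of the line for the 10 genes, with bars for the 95% interval and open circles where no test was made. PTPRS in 786-O lies at -2.93 for sgKDM5C and 2.84 for sgKDM5D, and all other values lie between -0.23 and 0.61.

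The largest estimates among the 9 other members for sgKDM5C against sgCtrl in 786-O were 0.56 for PTPRU (95% interval -0.19 to 1.31) and 0.39 for PTPRD (-0.27 to 1.04). For sgKDM5C against sgKDM5D in CAKI-2 the largest was 0.47 for PTPRD (-0.10 to 1.04, edgeR adjusted p = 1.0). The median size of the log2 fold change over the members tested was 0.20 in A498, 0.12 in 769-P, 0.08 in CAKI-2 and 0.07 in 786-O, against 0.24, 0.21, 0.15 and 0.17 over all genes. For sgKDM5D against sgCtrl in 786-O, the 9 members other than PTPRS lay between 0.00 and 0.34. Their estimates share the control library with those of sgKDM5C.

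Of 10 other receptor-type phosphatase genes, 6 had enough counts to be tested, and their levels differed between lines. PTPRN, a protein of secretory granules, was at 61.6 to 87.45 CPM in A498, 2.46 to 3.84 in CAKI-2 and at most 0.123 in 786-O and 769-P. PTPRH was at 65.2 to 79.4 CPM in A498 and 30.7 to 44.6 in CAKI-2, against 0.515 to 2.32 in 786-O and 0.452 to 1.19 in 769-P. PTPRB, the endothelial phosphatase, was highest in 786-O (12.9 to 37.3 CPM) and at most 0.123 CPM in 769-P, and PTPRO, known from podocytes, was highest in CAKI-2 (3.63 to 4.84 CPM). With edgeR, 31 of their 36 tests between lines were called (86.1%, against the shares of all genes given above). PTPRC, the leukocyte phosphatase, and PTPRQ, PTPRT and PTPRZ1 stayed at or below 0.225 CPM in every library.

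**Figure D5:**
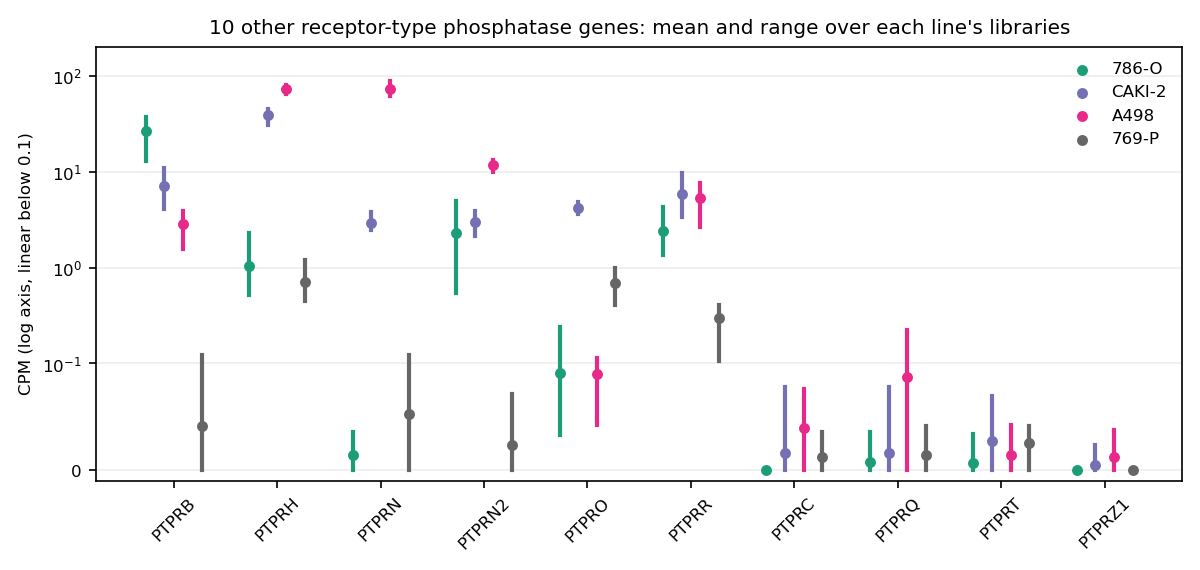
Mean (points) and range (bars) of CPM over the libraries of each line for 10 receptor-type phosphatase genes outside the set, on an axis that is logarithmic above 0.1 CPM and linear below. PTPRN reaches 61.6 CPM or more in A498 alone, and PTPRH is at 30.7 CPM or more in CAKI-2 and A498 and at 2.32 CPM or less in 786-O and 769-P.

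Genes that work with the family were read in the same way. Over all genes, 63.6% of the edgeR tests between lines were called. Of these tests, 28 of 36 were called for liprins, the scaffold proteins that bind the LAR group (77.8%), 87 of 108 for proteoglycans and adhesion ligands of the LAR group (80.6%), 27 of 36 for other ligands (75.0%), 33 of 48 for proteases that cleave the receptors (68.8%), 83 of 96 for substrates and partners (86.5%) and 58 of 84 for cytosolic phosphatases (69.0%). Among ligands of PTPRS, the proteoglycan gene HSPG2 (perlecan) was at 1117 to 1240 CPM in CAKI-2, 482 to 671 in 786-O, 126 to 228 in A498 and 59.2 to 94.3 in 769-P, so that its order of lines was not that of PTPRS. AGRN (agrin) was at 1509 to 1772 CPM in 786-O, 1052 to 1165 in A498, 814 to 904 in CAKI-2 and 589 to 789 in 769-P. The liprin gene PPFIA3 was at 66.7 to 99.0 CPM in CAKI-2, 25.3 to 25.7 in A498, 9.80 to 12.3 in 786-O and 3.09 to 4.40 in 769-P. LRRC4B, an adhesion ligand of PTPRS and PTPRF, was at 17.96 to 24.2 CPM in CAKI-2, 1.80 to 2.13 in A498 and at most 0.171 in 786-O and 0.124 in 769-P. Of the 74 genes tested from these 7 lists, edgeR called 0 in any comparison between guides, with 0 to 7 at an unadjusted p under 0.05. DESeq2 called JUP and SLITRK2 for sgKDM5C against sgCtrl in 786-O (0.152% of all genes), SLITRK2 for sgKDM5C against sgKDM5D in 786-O (0.355% of all genes), and 0 of the listed genes in the other comparisons.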

How the data were processed

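Raw counts per gene were used as deposited by the authors, 1 column per library. Total RNA (NucleoSpin RNA kit) had been made into Illumina TruSeq Stranded libraries and sequenced paired-end on a NovaSeq. The submitters' processing notes name Trimmomatic 0.38, STAR 2.5.2b and GRCh37. The counting tool, annotation and use of strand are not given in the sources used here. All values were found to be whole numbers. The header was 1 name short, so every name was taken for the next column on. Of 57773 gene IDs, 55538 were matched to symbols and GRCh37 coordinates (GENCODE release 44, lifted).

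Testing covered the 20175 genes whose counts summed to 60 or more. In R 4.3.3, edgeR 4.0.16 (quasi-likelihood, TMM) was fitted to the 16 libraries together, giving 1 mean per line and genotype (10 groups) and 6 residual degrees of freedom. The common dispersion was 0.0231, a biological coefficient of variation of 15.2%. Benjamini-Hochberg adjustment ran over every tested gene of a comparison, with calls made under 0.05. The SE was taken as the absolute log2 fold change over the root of F, and intervals are at 95%. The procedure was tested on simulated data. CPM used TMM-scaled totals, and log2 CPM for correlations a prior count of 2. CPM per kb used the union of exons. Counting error is largest among the members for PTPRS in 786-O, with as few as 6 counts. It is also larger where other members had few counts, such as PTPRU in 769-P (from 122) and PTPRD in CAKI-2 (from 139), and for other genes with few counts. Alternatives were RLE size factors, DESeq2 1.42.0, filterByExpr, no filter beyond 1 count, a sum of at least 120 counts, a replicate block, a fit of each line alone, a fit without sgKDM5D libraries (12 left), leaving out each guide library, the thresholds of the study, the level of a line from sgKDM5C alone, plain totals and the longest transcript. Those chosen after seeing the data were the genes of other lines, the neighbours of PTPRS, the motifs and the difference of the sgKDM5D effects. Promoter windows and start sites came from RefSeq (GRCh38.p14). Members and gene lists were chosen with earlier results of these data known. The text names all 10 members, the listed phosphatases, and genes of the other lists as examples. Sequences of the guides and proteins were not used here. PECAM1 of the marker list was not matched by symbol.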

Additional observations from a re-analysis of the deposited data

How the results depend on the processing

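Under the alternatives run, 0 members were called in the comparisons between guides in which members were tested (none for sgKDM5C minus sgKDM5D in 786-O, and PTPRS in none that used 786-O). For the 9 members other than PTPRS, the 46 called differences between lines became 45 to 46 under the other fits and 45 to 47 when 1 guide library was left out, and 26 under the thresholds of the study (an unadjusted p under 0.05 and changes beyond 1 on the log2 scale), which drop smaller changes by construction. Calls were lost for PTPRK between 786-O and 769-P, PTPRF and PTPRJ between CAKI-2 and 769-P, and PTPRM between A498 and 769-P, in at most 3 alternatives each. For PTPRS in CAKI-2, sgKDM5C minus sgKDM5D (0.06) turned to -0.0103 with the replicate block, and leaving out 1 library gave -0.0622 to 0.21, all inside its interval. The value -0.0622 came from the fit without sgKDM5D 4. The cause was not tested. In 786-O it moved from -5.78 to -4.14 without sgKDM5D 2. Guide numbers did not pair libraries across lines (correlations of deviations of -0.223 to 0.291), and the replicate block left all counts of members called as they were. Counts over all genes moved more. Those called for sgKDM5C minus sgKDM5D in 786-O were 13, but 0 with each line fitted alone, 297 without a filter and 314 without sgKDM5C 5, and those for sgKDM5C against sgCtrl in 786-O were 2, but 136 without a filter and 205 without sgKDM5C 5. In the other 9 comparisons, with 0 to 3 genes called, the largest count under another setting was 3 to 115. Intervals with a single control library limit what can be said of changes under 1 on the log2 scale.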

Other observations

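Midkine (MDK), a growth factor ligand of receptor-type phosphatases, had a wide range in 786-O through its highest library, and a narrow one in A498. It was at 0.97 CPM at its lowest and 25.9 CPM at its highest among the 786-O libraries. Its median there was 2.26 CPM, and the highest value came from sgKDM5C 4, the library that stood apart. MDK was at 7.28 to 17.9 CPM in CAKI-2, and at 8.63 to 8.98 CPM in A498. Pleiotrophin (PTN), its relative, was at 2.24 to 2.40 CPM in A498 and at most 0.0698 CPM in the other lines. The matrix protein gene THBS1, which encodes a ligand of PTPRJ, ran from 7.79 to 15.1 CPM in A498 to 1290 to 1646 CPM in 769-P, with 217 to 751 CPM in 786-O and 165 to 275 CPM in CAKI-2.

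Among catenin and adhesion partners, plakoglobin (JUP) was at 1.28 to 9.94 CPM in 786-O and 345 to 408 CPM in CAKI-2. The median of JUP in 786-O was 2.76 CPM, and its highest value there came from sgKDM5C 4. E-cadherin (CDH1) was found at 11.4 to 31.9 CPM in CAKI-2 and at most 0.213 CPM in the other lines. Proteases that cleave the receptors were more even, with ADAM10 between 116 and 208 CPM and FURIN between 47.9 and 190 CPM over all libraries.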
